A study of Mus musculus with 4 samples.

Results

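The exosome fraction of 3T3-L1 cells held signal for most 3p miRNAs of the miR-467 and miR-669 families, and their unscaled signal was several times higher after the start of adipocyte differentiation than before it, by a size that depended on the scaling between arrays. The 5p miRNAs of the same families were detected less often. Those detected stayed close to their D0 signal at D4 and D12 without scaling and lay below it with any of the 4 scalings tried. Without scaling they also lay below it when only spots on the right side of the array were used. Members were every mouse miRNA on the array whose name begins with miR-467 or miR-669, followed by a letter, a hyphen or the end of the name. They numbered 35 of the 1881 miRNAs on the array. The miR-467 family gave 12 of them and the miR-669 family 23. By name 16 were 3p miRNAs, 13 were 5p miRNAs and 6 carried no arm.

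3T3-L1 is a mouse fibroblast line, obtained from embryo cultures, that turns into fat cells when confluent cultures are given inducing hormones. Vesicles were collected by ultracentrifugation from culture medium made with exosome-depleted serum, at D0 (undifferentiated cells), D4, D12 and D16. The cells at D4, D12 and D16 had received a first medium with IBMX, dexamethasone and insulin, followed by a second medium with insulin. Each day was measured on 1 single-colour Agilent mouse miRNA array. The labels describe each sample as a pool of 3 preparations, whereas the methods describe a mixture of 2 experiments. No day has a second array, so no test between days was possible and no p-value is given. The day, the array, the medium and the pool cannot be told apart.

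The values are the total gene signal of each miRNA, a fluorescence intensity in arbitrary units summed over its detected probes. A miRNA was called detected when the scanner software found at least 1 of its probes above 3 times the technical error of that probe. The errors given with the signals are technical errors within 1 array and hold nothing of the variation between cultures. The arrays were not scaled to each other. The summed signal of all detected miRNAs ran from 12716 at D0 to 39129 at D4, and the median ratio to D0 over all miRNAs detected on both days at D4, D12 and D16 was 2.47, 1.91 and 1.32. The 4 spike-in RNAs added with the labelling kit, whose amount was meant to be the same on each array, gave ratios of 1.82, 1.72 and 1.27 (geometric means). The ratios of the members stand against these figures. The spots of the D0 array also scattered more, with a median coefficient of variation of 21.1% over the replicate spots of a probe against 7.19% to 8.07% on the other arrays. Markers of the mesenchymal and adipocyte lineage were detected as 3, 4, 4 and 4 of 4 at D0, D4, D12 and D16. Of 9 markers of red blood cells, liver, striated muscle and leukocytes, 1, 4, 6 and 6 were detected, with summed signals of 9.40, 485, 2607 and 1706. Most of each sum came from the red blood cell marker miR-451a, with 9.40, 443, 2400 and 1559. The 3 striated muscle markers were detected on no day. The summed signal of these markers was highest at D12, and its part in the results below was not tested.

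A miRNA gene is transcribed into a hairpin, which is cut into a short duplex. The strand from the left side of the hairpin is named 5p and that from the right side 3p. One strand is usually kept by an Argonaute protein, where bases 2 to 8, the seed, pair with target mRNAs, and the other is mostly degraded. The miR-467 and miR-669 families belong to a large rodent cluster that lies in an intron of Sfmbt2, a gene for a Polycomb group protein that is imprinted and expressed from the paternal copy in the placenta. The cluster arose by many local duplications, so its members resemble each other closely and are rich in repeats of U with G on the 5p side and of A with C on the 3p side. Members of the cluster are best known from the placenta.

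In RefSeq's gene table for the GRCm38.p6 assembly, 72 miRNA genes lay within the bounds of Sfmbt2, of which 43 were miR-467 or miR-669 genes and 29 were miR-297 or miR-466 genes. All genes of 32 of the 35 members were among them. Some mature miRNAs have many gene copies there, 10 for miR-467a and 12 for miR-669a, and their copies cannot be separated on the array. The other 3 members, miR-467f, miR-467g and miR-669n, have their only listed gene on another chromosome, so the name of the intron does not hold for them. These are also the 3 members whose mature sequence was matched in RefSeq, and all 3 carry no arm in their names. They are shown because they differ in their repeat and in their course over the days. The seed is in capitals, and each is read 5′ to 3′:

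miR-467f: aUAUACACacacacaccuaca
miR-467g: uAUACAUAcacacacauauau
miR-669n: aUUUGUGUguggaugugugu

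The first is at chr11:69635419-69635439 on the minus strand, the second at chr5:34732872-34732892 on the minus strand and the third at chr3:115979905-115979924 on the plus strand (GRCm38.p6). miR-467f consisted of A and C for 85.7% of its bases, with an unbroken run of 12 alternating A and C, and miR-467g for 71.4%, with a run of 9. miR-669n consisted of U and G for 90.0%, with a run of 8 alternating U and G. No other matched miRNA on the array had any of these 3 seeds. The search covered the 1608 of 1881 miRNAs that were matched and left out all other members, so their seeds are not known here.

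Detection was higher among the members than over the array. At D0, D4, D12 and D16, 25, 25, 24 and 23 of the 35 members were detected, or 71.4%, 71.4%, 68.6% and 65.7%. Over all miRNAs the shares were 17.5%, 22.6%, 21.6% and 20.2%. Of the members, 22 were detected on all 4 days, 4 on some days and 9 on no day. The 2 families differed little here, with 7 of 12 miR-467 and 15 of 23 miR-669 members detected on all days.

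Detection followed the arm. Of the 16 3p members, 14 were detected at D0 and 15 on each later day. Of the 13 5p members, 7, 6, 5 and 4 were detected at D0, D4, D12 and D16. Over the whole array the detected share of 3p miRNAs was 20.6% at D0 and 27.1% at D12, and that of 5p miRNAs was 13.5% and 17.0%. The members detected on no day were the 5p miRNAs miR-467a-5p, miR-467b-5p, miR-467d-5p, miR-467e-5p, miR-669a-5p and miR-669h-5p, the 3p miRNA miR-669k-3p, and miR-669g and miR-669j, which carry no arm.

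The 4 members whose detection varied were 1 3p and 3 5p miRNAs. miR-669m-3p was not detected at D0, where its bound, 3 times the summed technical errors of its probes, was 4.97, and its later signals (D4, D12, D16) were 41.8 ± 2.42, 23.8 ± 1.65 and 18.2 ± 1.27. Its signal was thus at least 8.41-fold higher at D4 than at D0, at least 4.78-fold higher at D12 and, on the last day, at least 3.66-fold higher. miR-467c-5p was detected only at D0, with 3.28 ± 0.885. The same probe read 2.87, 2.94 and 1.92 on the later days, against thresholds of 3.67, 3.42 and 2.69, so its loss came at the limit of detection. miR-669k-5p gave 2.85 ± 0.872 at D0 and 4.03 ± 1.26 at D4 and was not detected afterwards. miR-669f-5p gave 4.63 ± 0.946, 4.38 ± 1.27 and 3.78 ± 1.16 at D0, D4 and D12 and was not detected at D16, where its probe read 2.55 against a threshold of 2.74. These 3 5p miRNAs lay near the limit on every day.

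**Figure D1:**
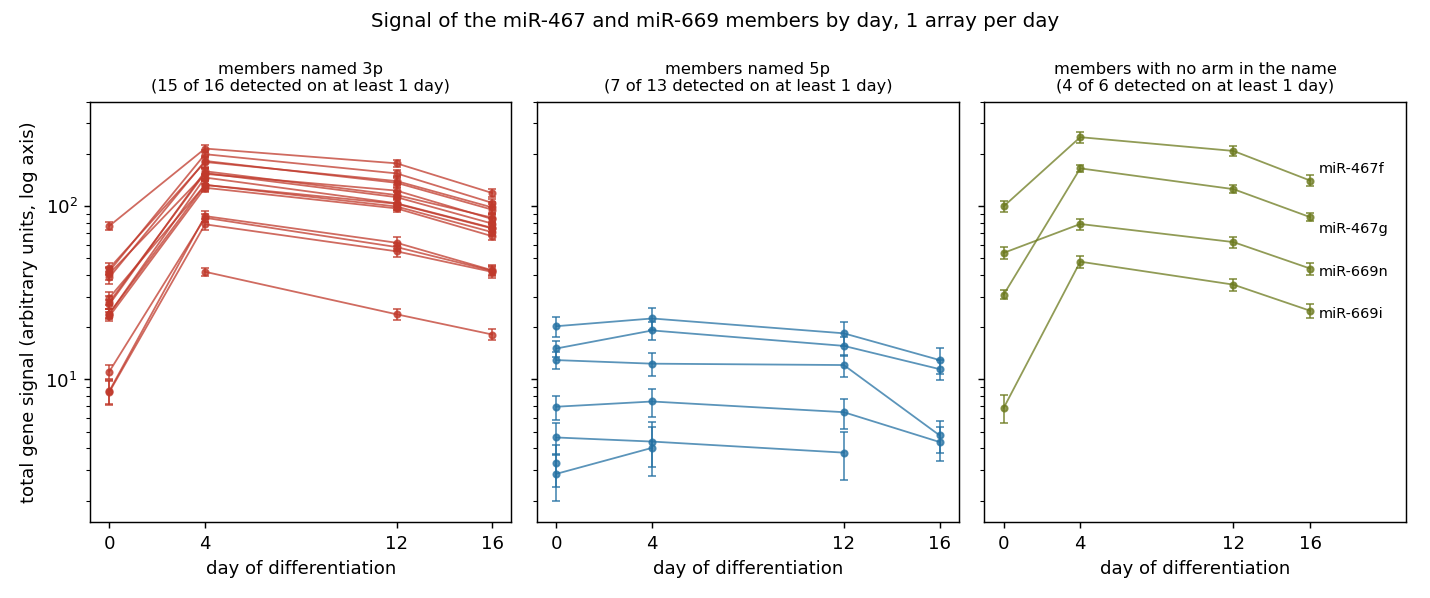
Total gene signal (arbitrary units, log axis) against the day of differentiation for every member detected on at least 1 day, split by arm, with bars of 1 technical error and 1 array per day; days without detection have no point. On these unscaled signals the 3p members stand highest at D4 and decline to D16 while staying above their D0 signal. The 5p members run nearly level from D0 to D12 on the same signals. With the 75th percentile scaling 11 of 14 3p members and no 5p member lie above D0 at D12, where the median log2 ratio of all miRNAs is -0.78. Of the 4 miRNAs with no arm in the name, miR-669n has the flattest course.

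The 3p members had higher signals on every later day than at D0. The median ratio of the 14 3p members detected at D0 went from 5.53 at D4 to 4.09 at D12 and to 2.87 by D16, against 2.47, 1.91 and 1.32 over all miRNAs. A ratio above 2 was reached by 14 of 14 at D4, where 62.1% of all miRNAs detected on both days reached it, by 14 of 14 at D12, against 47.8%, and by 13 of 14 at D16, against 31.1%. These counts rested on the scaling. With the 75th percentile, the 90th percentile and quantile normalization they were 2, 4 and 3 at D4 and 2, 3 and 3 at D16, where 6.62%, 14.5% and 11.7% of all miRNAs at D4 and 11.4%, 14.5% and 13.8% at D16 were above 2-fold. With the spike-in RNAs they were 13 at D4 and 8 at D16, against 29.0% and 23.2%. Every one of the 14 lay above the median of all miRNAs on each of these days. Above D0 itself at D12 lay 14 of 14 without scaling and with the spike-in RNAs. With the 90th percentile or quantile normalization 13 did, and 11 with the 75th percentile. The median log2 ratio of all miRNAs at D12 was 0.94 without scaling and 0.15 with the spike-in RNAs. It was -0.28, -0.31 and -0.78 with the 90th percentile, quantile normalization and the 75th percentile. Without scaling most miRNAs thus also lay above D0. At the level of single probes and without scaling, 42 of 42 3p probes had a ratio above 2 at D4 and at D12, and 38 of 42 at D16. The unscaled ratio of a 3p member was thus not that of a single outlying probe. These probes share the same arrays and their generally higher signals after D0, and the share over all probes is not given here.

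The 4 brightest 3p members at D4 were miR-669p-3p, miR-467a-3p, miR-467d-3p and miR-669f-3p. miR-669p-3p gave 76.9 ± 3.98 (D0), 215 ± 10.9 (D4), 177 ± 8.94 (D12) and 119 ± 6.03 (D16). Its ratio to D0 at D12, 2.30, was the lowest of the 3p members. miR-467a-3p gave 42.1 ± 2.29, 199.5 ± 10.1, 155 ± 7.82 and 104 ± 5.30 over the same days, with a ratio of 3.67 at D12. miR-467d-3p gave 38.8 ± 3.01, 182 ± 13.1, 136 ± 9.81 and 95.4 ± 6.90, with a ratio of 3.52. miR-669f-3p gave 43.8 ± 3.36, 180 ± 12.8, 140 ± 10.0 and 98.3 ± 7.07, with a ratio of 3.19. All 4 were lowest at D0 and highest at D4, and each D0 value was below every later value of the same miRNA on these unscaled signals. At D12 miR-669p-3p came out at or below D0 with the percentile and quantile scalings, and miR-669f-3p with the 75th percentile.

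The highest ratios belonged to 3p members that were dim at D0. miR-669b-3p gave 8.56 ± 1.32 (D0), 87.7 ± 6.45 (D4), 61.5 ± 4.66 (D12) and 42.6 ± 3.29 (D16). Its ratios to D0 over the 3 later days were 10.2, 7.18 and 4.98. miR-669l-3p gave 8.45 ± 1.31, 78.6 ± 5.83, 54.9 ± 4.20 and 41.7 ± 3.21, with ratios of 9.29, 6.49 and 4.94. These were followed at D12 by miR-669d-3p, whose ratio was 5.23, from 11.1 ± 0.996 at D0 to 58.1 ± 3.13 at D12. The other 3p members, miR-467b-3p, miR-467c-3p, miR-467e-3p, miR-669a-3-3p, miR-669c-3p, miR-669e-3p and miR-669h-3p, had D12 ratios from 3.02 to 4.34.

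**Figure D2:**
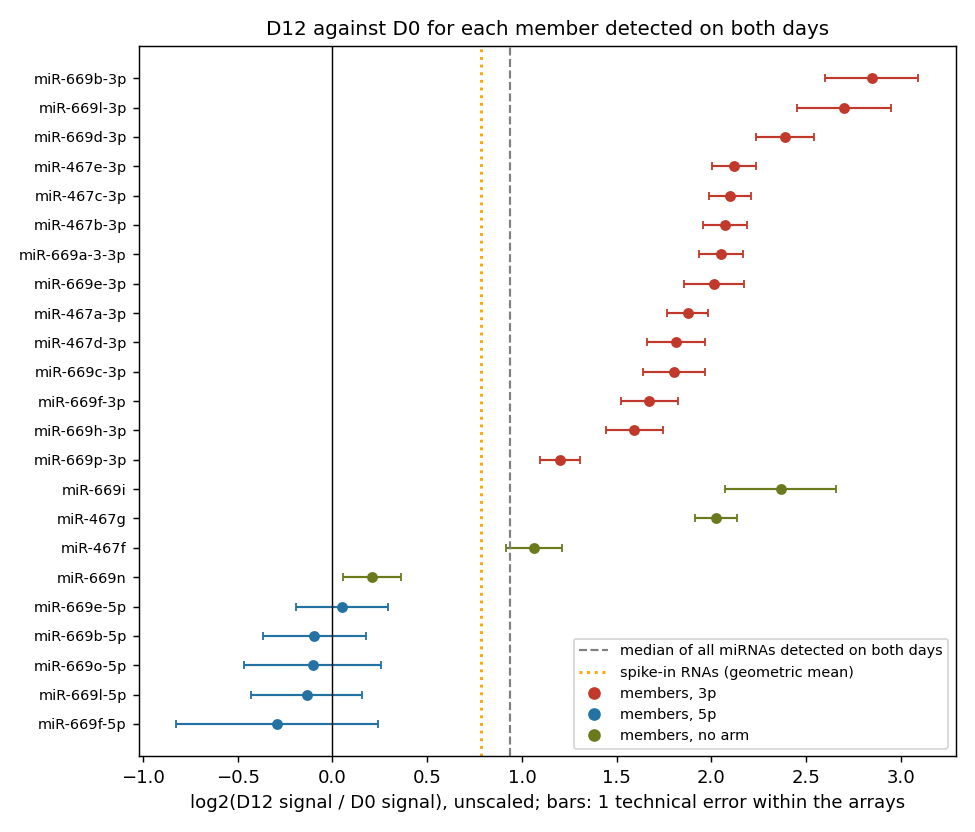
Log2 ratio of the D12 to the D0 signal for the 23 members detected on both days, without scaling between arrays, with bars of 1 technical error, the median of all miRNAs (dashed) and the mean of the spike-in RNAs (dotted). All 14 3p members lie to the right of both lines and all 5 5p members lie to the left of both, at or near 0.

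The 5p members did not share this course. Their median ratio was 1.09 over 6 miRNAs at D4, 0.930 over 5 at D12 and 0.632 over 4 at D16, and it was below 1 on each of these days with any of the 4 scalings. None reached a ratio above 2 on any day. At D4 and D12 none was below 0.5, where 0.315% and 3.37% of all miRNAs were, and at D16 1 of 4 was, against 9.34%. The ratios of all 6 at D4 and all 5 at D12 were within 2 technical errors of 1, as were those of 2 of 4 at D16. A ratio of 1 on these unscaled signals was below the median of all miRNAs and below the spike-in RNAs on each day. Divided by the spike-in ratio, the 5p ratios at D12 were 0.475 to 0.601. The choice of spots moved the 5p values without any scaling. With spots of the right side of the array only, the 5p median log2 ratio was -0.54 at D4 and -0.78 at D12. All 6 and all 5 ratios were then below 1. With the median spot these medians were -0.28 and -0.40.

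The brightest 5p members at D4 were miR-669l-5p, miR-669e-5p, miR-669b-5p and miR-669o-5p, which were also the only ones detected on all 4 days. miR-669l-5p gave 20.3 ± 2.66 (D0), 22.5 ± 3.28 (D4), 18.5 ± 2.87 (D12) and 12.9 ± 2.18 (D16). miR-669e-5p gave 15.1 ± 1.65, 19.2 ± 2.24, 15.6 ± 1.98 and 11.5 ± 1.53, and its D12 ratio of 1.04 was the highest of the 5p members. In miR-669l-5p the first 3 values overlapped within 1 technical error. In miR-669e-5p the D4 value was the highest, and within 1 technical error it overlapped D12 but not D0. D16 was the lowest day in both. miR-669o-5p gave 6.96 ± 1.09, 7.46 ± 1.41, 6.47 ± 1.28 and 4.36 ± 0.982. miR-669b-5p gave 12.9 ± 1.503, 12.3 ± 1.91, 12.1 ± 1.79 and 4.76 ± 0.998. The D16 ratio of miR-669b-5p, 0.368, was the one below 0.5, but its signal summed 2 probes at D0 and 1 probe at D16, and over the probe detected on both days the ratio was 0.630. The lowest D12 ratio among 5p members, 0.818, belonged to miR-669f-5p.

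On each day the lowest 3p ratio was above the highest 5p ratio, by 0.99, 1.15 and 1.03 on the log2 scale. Under every scaling, spot summary and filter tried, this gap stayed between 0.93 and 1.40. The same contrast was present within hairpins, where a factor common to an array drops out. Of 11 hairpins with both arms on the array, 4 had both arms detected at D0 and D12, all of the miR-669 family. The D12 ratio of the 3p arm was 7.67 times that of the 5p arm in miR-669b, 7.13 times in miR-669l, 3.90 times in miR-669e and 3.90 times in miR-669f. On the log2 scale these were 2.94 ± 0.37, 2.83 ± 0.38, 1.96 ± 0.29 and 1.96 ± 0.55 (technical errors). Their median was 2.40 at D12 and 2.60 at D4, and 2.95 at D16 over the 3 hairpins measured there.

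In 5 more hairpins, those of miR-467a, miR-467b, miR-467d, miR-467e and miR-669h, the 3p arm was detected on all days and the 5p arm on none. The bound for these 5p miRNAs was 4.91 to 4.98 at D0 and 6.58 to 6.65 at D12. In miR-467c the 3p arm was detected on all 4 days and the 5p arm on 1. miR-669k went the other way, with its 5p arm detected on 2 days and its 3p arm on none. No difference between arms was computed for any of these hairpins.

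The direction of the difference between arms was shared by most other hairpins, at a smaller median size. Over all 158 3p miRNAs detected at D0 and D12 the median ratio was 2.11, and over 87 5p miRNAs it was 1.79. In the 26 other hairpins with both arms measured at D12, the median log2 difference was 1.11, from -4.46 to 3.43, and 20 of 26 were above 0. Among these, 5 exceeded the lowest of the 4 miR-669 hairpins, namely miR-7005, miR-7070, miR-7011, miR-7118 and miR-466m. The hairpins of the miR-466 family, measured in 4 cases, were all above 0, with 1.14 for miR-466i, 1.62 for miR-466f, 1.67 for miR-466h and 2.30 for miR-466m. At the other end were hairpins such as miR-125a, let-7g and let-7d, whose 5p arm had the higher ratio.

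**Figure D3:**
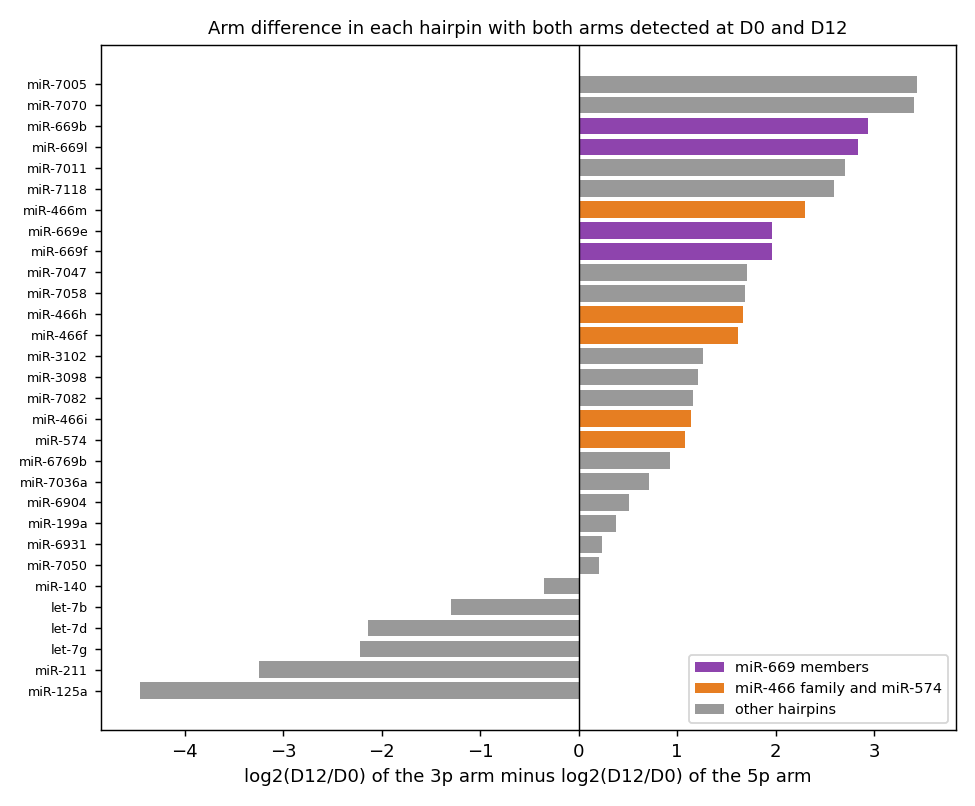
Difference between the log2 D12 to D0 ratios of the 3p and the 5p arm for the 30 hairpins with both arms detected on both days, each bar 1 hairpin. The 4 miR-669 hairpins lie from 1.96 to 2.94, above most other hairpins but not above all.

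The members without an arm in their names split between these courses. miR-467f gave 99.7 ± 7.24 (D0), 250.1 ± 17.8 (D4), 208 ± 14.8 (D12) and 141 ± 10.0 (D16), with a D12 ratio of 2.09 that came out below 1 with the percentile and quantile scalings. miR-467g gave 30.9 ± 1.78, 165 ± 8.36, 125 ± 6.38 and 86.5 ± 4.43, with a ratio of 4.06. miR-669i gave 6.84 ± 1.26, 47.8 ± 3.81, 35.2 ± 2.97 and 24.9 ± 2.18, with a ratio of 5.15. These 3 had ratios in or near the range of the 3p members. miR-669n gave 53.7 ± 4.04, 78.9 ± 5.84, 62.0 ± 4.66 and 43.7 ± 3.34, and its D12 ratio of 1.15 was below the median of all miRNAs and nearest to the 5p members. The log2 ratio of miR-669n, 0.21 without scaling, was below 0 with each of the 4 scalings (-0.58 to -1.51), with the median spot (-0.22) and with spots of the right side (-0.33). Of the sequences shown above, the A and C rich miR-467f and miR-467g had the higher ratios and the U and G rich miR-669n the lower one.

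Other miRNAs with such repeats, none of them a member, were compared because, in these families, the arm goes with the repeat. Of these, 5 are shown, with the seed in capitals, first the pair from the miR-574 hairpin, which holds a U and G repeat on one arm and an A and C rich sequence on the other, then miR-1187 and miR-3082-5p with U and G repeats and miR-466i-3p with an A and C repeat:

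miR-574-5p: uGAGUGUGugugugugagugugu
miR-574-3p: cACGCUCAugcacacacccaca
miR-1187: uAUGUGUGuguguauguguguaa
miR-3082-5p: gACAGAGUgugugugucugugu
miR-466i-3p: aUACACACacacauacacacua

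miR-574-5p, with an unbroken run of 13 alternating U and G, gave 119 ± 8.65 at D0 and 143.1 ± 10.3 at D12, a ratio of 1.21. miR-574-3p gave 64.9 ± 3.40 and 165 ± 8.33, a ratio of 2.54. miR-1187 and miR-3082-5p had ratios of 1.19 and 1.31. miR-466i-3p gave 83.3 ± 6.24 and 197 ± 14.1, a ratio of 2.37. The 3 U and G repeats stood close to miR-669n, and miR-574-3p and miR-466i-3p close to miR-467f, whereas miR-467g, with 4.06, stood above both. The longest run of alternating A and C in miR-574-3p was 7.

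All miRNAs outside the 2 families with a sequence gave a less even picture. The 5 with a run of at least 8 alternating U and G, which were miR-574-5p, miR-1187, miR-3082-5p, miR-32-3p and miR-672-5p, had a median log2 ratio of 0.27 at D12, and none of them was past 2-fold in either direction. With U and G at 75% of the bases or more, 20 miRNAs had a median of 0.26 but ranged from -1.29 for miR-8110 to 4.19 for let-7c-5p. The next highest were let-7a-5p at 3.55 and let-7i-5p at 2.81, and the next lowest miR-672-5p at -0.84 and miR-5622-3p at -0.73. With A and C at 75% or more, 14 miRNAs had a median of 1.12, the lowest being miR-6976-3p at 0.41, miR-6931-3p at 0.46 and miR-6985-3p at 0.66, and the highest miR-3060-3p at 2.13, miR-7069-3p at 1.93 and miR-3968 at 1.51. All 233 such miRNAs had a median of 0.92, and Spearman's correlation of their U and G share with the log2 ratio was -0.246, a description across miRNAs that share the same pair of arrays. At D4 the same correlation was 0.0275 over 252 miRNAs. At 75% the D4 medians of the U and G rich and of the A and C rich miRNAs were 0.96 and 1.00, close to each other. At 80% they were 0.91 over 8 miRNAs and 1.61 over 3. For runs of at least 8, the D4 medians were 0.56 for U and G, over 5 miRNAs, and 1.57 for A and C, over 2. These 2 were miR-466i-3p and miR-466q, both of the closely related miR-466 family. At D12 the medians for such runs were 0.27 and 1.30. How composition relates to the difference between the arms was not tested. At D16 the correlation was -0.195 and the medians at 75% were -0.29 and 0.33. The let-7 miRNAs combined a high share of U and G with high ratios.

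**Figure D4:**
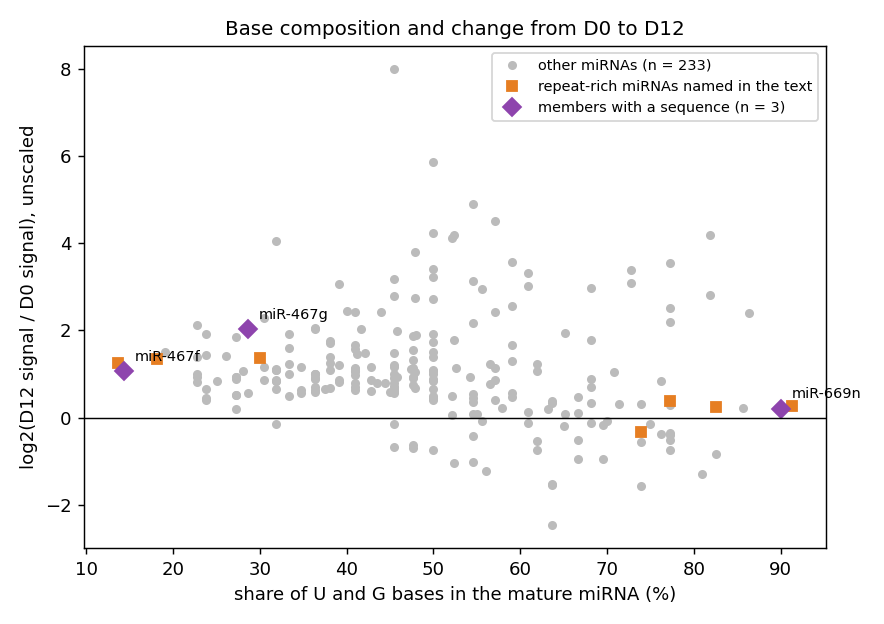
Log2 ratio of the D12 to the D0 signal against the share of U and G in the mature sequence, for the miRNAs with a RefSeq sequence detected on both days; diamonds mark the 3 members with a sequence, squares repeat-rich miRNAs of other families, and grey points the rest. The A and C rich members miR-467f and miR-467g lie above 1 and the U and G rich miR-669n lies at 0.21 without scaling (below 0 with each of the 4 scalings, as miR-467f is with 3 of them), while let-7 miRNAs with a similar share of U and G lie above 2.

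The 3p members differed more at D0 than later. Their D0 signals ran from 8.45 to 76.9 and their D4 signals from 78.6 to 215, and the SD of the log2 signal over the 14 was 0.92 at D0 and 0.45, 0.52 and 0.49 on the later days. Over 261 other miRNAs detected on all 4 days the SD did not narrow, with 1.80 at D0 and 1.90, 1.91 and 1.93 afterwards. The ratio at D12 was ordered almost inversely to the D0 signal among 3p members, with a Spearman correlation of -0.934 over 14 miRNAs, against -0.251 over the 261 others. The D0 signal is part of the ratio and the members share both arrays and closely related sequences, so this is a description only. The 5 dimmest at D0 had a median D12 ratio of 5.23 and the 5 brightest one of 3.19. The brightness of a probe also depends on the probe, so the levels are not amounts of 1 miRNA against another. Whether the probes separate family members of near-identical sequence was not tested, since the files give no probe sequences.

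**Figure D5:**
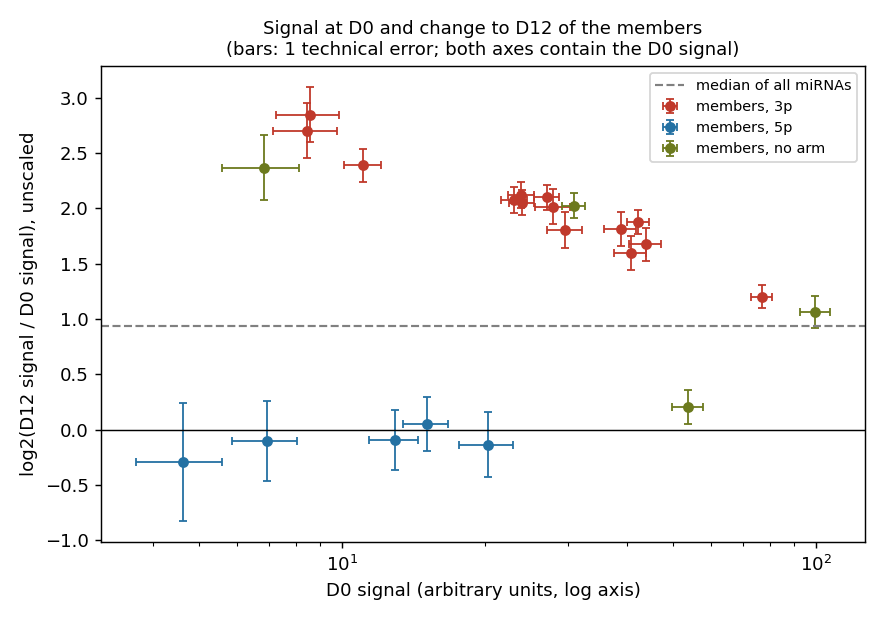
Log2 ratio of the D12 to the D0 signal against the D0 signal (arbitrary units, log axis) for the 23 members detected on both days, with bars of 1 technical error. The 3p members descend from 2.84 for miR-669b-3p to 1.201 for miR-669p-3p, while the 5p members lie near 0 although their D0 signals, 4.63 to 20.3, include those of the dimmest 3p members.

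Members were lower on each step after D4. From D4 to D12 the signal was lower in 24 of 24 members detected on both days, against 70.6% of all miRNAs, with a median ratio of 0.747 for the 3p and 0.863 for the 5p members, where all miRNAs had a median of 0.865 and the spike-in RNAs a ratio of 0.944. From D12 to D16 it was lower in 23 of 23 members, against 95.7% of all miRNAs, and their median ratio was 0.703, the same value as over all 371 miRNAs, and the spike-in RNAs gave 0.739.

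As a share of the signal of all detected miRNAs, the members made up 5.37% at D0 and 6.87%, 6.61% and 6.53% on the later days. The 3p members went from 3.35% to 5.31%, 5.04% and 5.02%, and the 5p members from 0.519% to 0.179%, 0.182% and 0.153%. The members without an arm stayed between 1.35% and 1.504%. These are shares of fluorescence and not of molecules.

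The miR-297 and miR-466 families, to which the other miRNA genes of the intron belong together with some genes elsewhere, numbered 26 on the array and were detected as 13, 17, 16 and 17 at D0, D4, D12 and D16. Their 5 3p miRNAs detected on both days had a median D12 ratio of 2.65, and their 5 5p miRNAs one of 0.837. At D4 these medians were 3.05 and 1.01. The 5p values were close to those of the miR-467 and miR-669 families, and the 3p values were lower in the median. miR-466b-3p, miR-466d-3p and miR-466l-3p were not detected at D0 and are outside these medians. Their signals were at least 4.27-, 4.58- and 3.81-fold higher at D4, and at least 2.25-, 2.49- and 2.53-fold higher at D12. miR-466o-3p, also not detected at D0, gave only 2.81 at D4 and was not detected at D12. The difference between the families was not tested. Their share of the detected signal went from 5.13% at D0 to 4.18%, 4.37% and 4.16%.

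The scaling decided how far the 3p members stood above D0. Divided by the spike-in RNAs, the 3p members had a median D12 ratio of 1.25 on the log2 scale, with 11 of 14 above 2-fold, in place of 2.03 and 14 of 14, where 24.2% of all miRNAs were above 2-fold and 11.4% below 0.5. Of the 5p members 1 of 5 was below 0.5 with this scaling. With the 75th percentile over miRNAs detected on every array as the divisor, the 3p median was 0.32, with 1 of 14 above 2-fold against 10.1% of all miRNAs, and the 5p median was -1.82, with 5 of 5 below 0.5 against 38.4%. The 3p count was then near that of the array. The median of all miRNAs moved with these scalings, from 0.94 without scaling to 0.15 with the spike-in RNAs and -0.78 with the 75th percentile. It also depended on the spots used. With spots of the right side only and no scaling it was 0.31 at D12, and at D4 it was 0.58 in place of 1.30. In vesicles collected from medium, fewer vesicles and less miRNA in each cannot be told apart, and the same holds for the number of cells and the RNA of each.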

How the data were processed

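Exosome-fraction RNA (3T3-L1 cells) was hybridised to 4 arrays, 1 per day. The authors scanned them and deposited the output of Agilent Feature Extraction (11.0.1.1 per the file headers), in which each spot has a background-subtracted intensity and each miRNA a total gene signal, an intensity summed over detected probes and set to 0.1 where none was detected. Each miRNA had 30 spots. The spot size was the default fraction of 0.6 at D0 and D16 and was estimated as 0.780 and 0.760 at D4 and D12, which can shift the signals. No spot was saturated.

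Groups came from the labels. Signals were divided by the D0 signal without scaling between arrays. The methods name the division by D0; whether the authors also scaled the arrays is not given in the sources used here, and the unscaled ratios do not stand for theirs. Detection was the software's call. Technical errors were propagated to ratios. A fold of 2 was used for counts, and with 1 array per day no test was run. Runs and composition were counted on RefSeq mature sequences (GRCm38.p6), matched for 1608 of 1881 miRNAs and 3 members. Named members were the brightest and those with extreme ratios in each arm, those detected on some days only, and hairpins with both arms. Members and lists were chosen with earlier results of these data known. Alternatives were 4 scalings, another spot summary, spots of the right side of the array only, other detection rules, a brightness filter, a fold of 1.5 and composition limits of 70% and 80%. The computation was checked on simulated data (Python 3.11.15, numpy 2.4.6, pandas 2.3.3, scipy 1.17.1). The number of arrays limits the precision.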

Additional observations from a re-analysis of the deposited data

How the results depend on the processing

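No paired analysis was possible because each day has 1 array and no replicate number is shared. Of 416 recomputed values, 324 were log2 values and 92 were counts or shares. Of the log2 values, 29 changed sign or came to 0, 10 of which were past 2-fold before. The 3p median log2 ratio at D12 was 0.32 with the 75th percentile, 0.82 with the 90th percentile, 0.39 with quantile normalization, 1.25 with the spike-in RNAs, 1.63 with the median spot and 1.57 with spots of the right side; the 5p median was -1.82, -1.32, -1.35, -0.89, -0.40 and -0.78. Above 2-fold were 1, 3 and 3 of 14 3p members with the first 3 of these scalings, against 10.1%, 14.5% and 12.8% of all miRNAs. Below 0.5 were 5, 5, 5 and 1 of 5 5p members with the 4 scalings, against 38.4%, 20.5%, 25.9% and 11.4% of all miRNAs. The median of members without an arm reversed with the 75th percentile, to -0.22 at D4, -0.18 at D12 and -0.19 at D16. So did, at D12, miR-467f (-0.66, with the 90th percentile -0.15, with quantile normalization -0.10), miR-669p-3p (-0.52, -0.013 and 0), miR-669f-3p (-0.045) and miR-669h-3p (-0.12). The distance between the 3p and 5p medians was 1.74 with quantile normalization, and the arm difference within hairpins was 2.83 over 3 hairpins where 50% of the spots had to be well above background, or with the brightness filter, each of which leaves fewer hairpins. The 3p share of signal was 3.90% at D0 and 5.07% at D4 with quantile normalization; with the rule on 50% of the spots it was 3.46%, 5.13% and 5.11% at D0, D12 and D16, and the 5p share 0.486% at D0 and 0.159% at D4. The cause of the differences between scalings was not tested. Signals near the detection limit bound what can be said of the 5p members. The lowest detected signal of any miRNA was 1.22 to 1.75 on the arrays. Bounds of undetected 5p members were higher, for example 4.91 at D0 and 7.12 at D4 for miR-467a-5p.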
